A study of Mus musculus with 41 samples.

Results

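Of the 10241 places where Runx2 was listed in calvarial osteoblasts, 2093 (20.4%, 95% Wilson interval 19.7 to 21.2%) were also listed for Runx2 put into 3T3 fibroblasts and were found neither in the Runx2 list of rib chondrocytes nor in the Jun list of osteoblasts. They are called recurrent osteoblast-only peaks here. A peak is a stretch of genome that the authors' peak caller marked as enriched in the immunoprecipitated DNA. The peaks were chosen by overlap of at least 1 bp with the list named for 3T3 Runx2 day 0 or day 3, and by no overlap with the chondrocyte Runx2 and osteoblast Jun lists. All 8 lists together held 155773 peaks. Chromatin accessibility was not analysed here, so recurrence means an overlap of peaks and not that the chromatin was open.

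The series maps Runx2 and other regulators in mouse skeletal cells by chromatin immunoprecipitation and sequencing (ChIP-seq). Osteoblast Runx2 was precipitated through a FLAG tag from calvarial osteoblasts of Runx2-BioFL/+ knock-in mice on C57BL/6 at postnatal day 1, with 2 libraries and 1 peak list. These mice carry 1 tagged and 1 untagged allele. The 3T3 lists came from cells overexpressing Runx2BioFL, taken after 3 days in osteogenic medium (ascorbic acid phosphate at 50 μg/ml, β-glycerophosphate at 10 mM and BMP-2 at 100 ng/ml) or at day 0, with 1 library each. Chondrocyte Runx2 came from rib chondrocytes of the same knock-in line and age (2 libraries, 1 list). Jun was precipitated from calvarial osteoblasts and Foxa2 from rib chondrocytes of wild-type C57BL/6 mice at postnatal day 1, with 1 library each. The background lists came from 3T3 cells overexpressing GFP, which hold no tagged Runx2, after 3 days in the same medium or at day 0 (1 library each). Osteoblasts were released by digesting dissected calvarial bone, so other cells of that bone could be among them. The lists hold no expression values against which the cell type could be checked.

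Runx2 is a transcription factor of the RUNX family that binds DNA together with its partner Cbfb. Osteoblasts do not form without it, and it also acts in maturing chondrocytes. Jun is a subunit of AP-1, a factor that sits at many enhancers of fibroblasts and osteoblasts, and Foxa2 is a forkhead factor that takes part in the hypertrophic maturation of chondrocytes. 3T3 cells are a mouse fibroblast line. Given Runx2 in osteogenic medium, such cells can be used to ask which osteoblast sites the factor reaches outside its own lineage.

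With a single list per group, the spread between replicates is unknown. The interval beside a share is a 95% Wilson interval, and the interval beside an odds ratio is a conditional 95% interval. These cover only the counting error over peaks, which are not independent of their neighbours. The depth of sequencing is not given in the sources used here. The labels of 2 lists were crossed: the list named for 3T3 Runx2 day 0 was tied to the GFP day 3 sample, and the list named for GFP day 3 to the 3T3 Runx2 day 0 sample. Each is used under its own name, and many of the main values, but not all, are also given with them exchanged.

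The recurrent peaks made up 31.9% (30.8 to 33.1%) of the 6558 osteoblast Runx2 peaks found in a 3T3 Runx2 list. They were 46.4% (45.0 to 47.9%) of the 4506 osteoblast peaks that had neither chondrocyte Runx2 nor Jun. That share was lower than in the whole osteoblast list, where 64.0% (63.1 to 65.0%) were in a 3T3 Runx2 list. Among the 1110 osteoblast-only peaks with Jun it was 65.9% (63.0 to 68.6%). The other 2413 of the 4506, in neither 3T3 list, are called non-recurrent. A further 2 classes in a 3T3 Runx2 list differ from the recurrent peaks in 1 condition each: 731 Jun-bearing peaks without chondrocyte Runx2, and 2455 chondrocyte-shared peaks without Jun. With the crossed lists exchanged 2027 peaks met the rule, of which 1894 were among the 2093. With the 3T3 Runx2 day 3 list alone 1861 did. In the wider 50% of each list, which thins the excluding lists too, 1292 did, of which only 712 were among the 2093. Values for the wider 50% therefore concern a largely different set of peaks.

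With the full lists under their own names, most recurrent peaks were in both 3T3 Runx2 lists. The day 3 list held 1861 of the 2093 (88.9%) and the day 0 list 1501 (71.7%), against 58.5% and 53.2% of all osteoblast Runx2 peaks. These shares are set by the rule and are given as a description. The 2 lists also differed in size, with 50180 peaks at day 3 and 31013 at day 0, and the part of this in the split by day was not tested. Of the recurrent peaks, 592 were in the day 3 list alone (28.3%, 26.4 to 30.3%), 232 in the day 0 list alone (11.1%, 9.81 to 12.5%) and 1269 in both (60.6%, 58.5 to 62.7%). Peaks listed on both days made up a larger part of the other classes, with 72.4% (69.0 to 75.5%) of the Jun-bearing and 81.0% (79.4 to 82.5%) of the chondrocyte-shared peaks. Day 3 alone accounted for 17.1% and 11.7% of those classes. With the crossed lists exchanged, 74.1% of the peaks that met the rule were in the day 3 list alone, 8.19% in the day 0 list alone and 17.7% in both. In the wider 50% of each list the split was 35.8%, 29.5% and 34.8% in the same order. The split by day therefore depends on which name is right and on which peaks are kept.

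**Figure D1:**
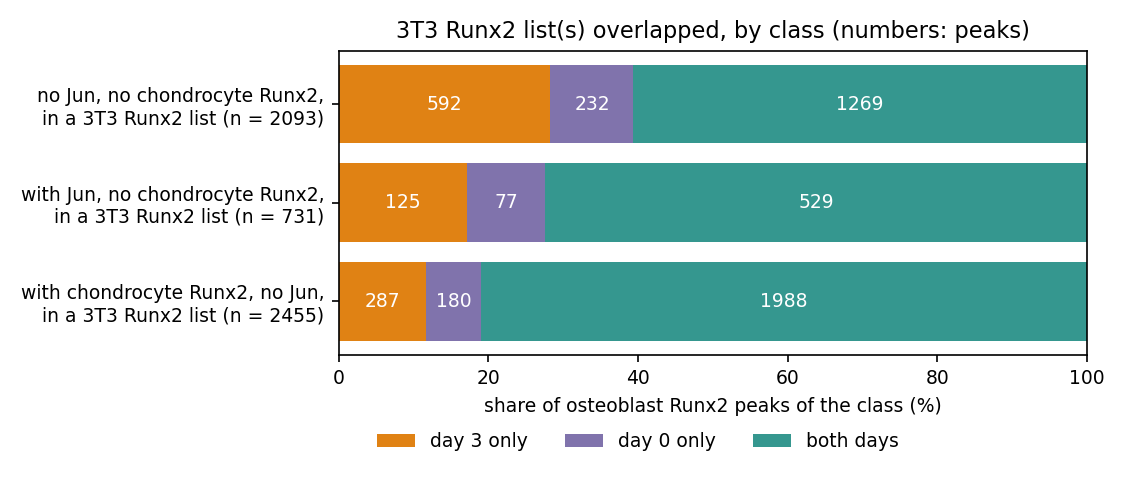
Share of each class of osteoblast Runx2 peaks (x axis, %) that overlapped the 3T3 Runx2 list of day 3 alone, of day 0 alone or of both days; the number of peaks is printed in each segment. The recurrent peaks, in the top bar, had 592 at day 3 alone, 232 at day 0 alone and 1269 on both days, the smallest share on both days of the 3 classes drawn.

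Each recurrent peak was paired with the 3T3 peak that it overlapped most. Since the rule required overlap of peaks of these widths, it bounds the distances and overlaps that follow, which are a description and say nothing of precision. The centres of the day 3 partners were a median of 66.5 bp away (quartiles 29 and 114 bp, n = 1861) and those of day 0 partners 53.5 bp away (24 and 98.5 bp, n = 1501). Centres within 50 bp were found for 758 recurrent peaks at day 3 (40.7%) and 706 at day 0 (47.0%). The overlap covered a median of 72.5% of the osteoblast peak at day 3 and 74.2% at day 0. For the 1269 peaks listed on both days, the day 3 and day 0 partners lay a median of 32 bp apart, and 814 of them (64.1%) had partner centres within 50 bp of each other. Several 3T3 peaks could meet 1 osteoblast peak: 198 recurrent peaks overlapped at least 2 day 3 peaks and 164 at least 2 day 0 peaks. In the other direction 12 day 3 peaks and 13 day 0 peaks were each shared by at least 2 recurrent peaks.

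**Figure D2:**
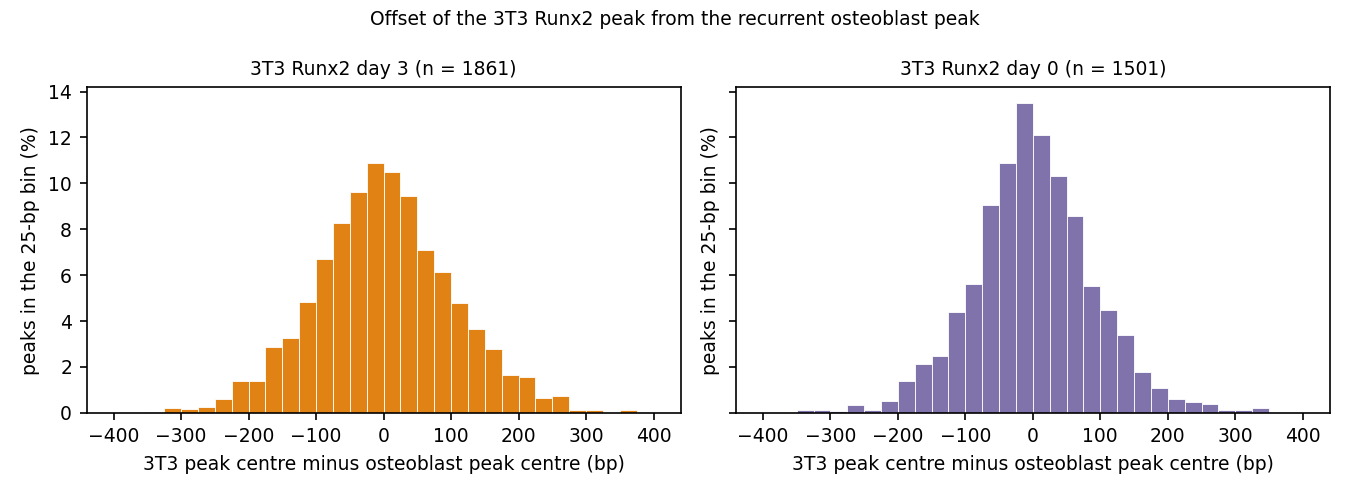
Distance from the centre of each recurrent osteoblast peak to the centre of its 3T3 Runx2 partner (x axis, bp, bins of 25 bp) against the share of peaks in the bin (y axis, %), for day 3 on the left and day 0 on the right. Both distributions peak at 0 and fall off on both sides, with median absolute distances of 66.5 bp at day 3 and 53.5 bp at day 0.

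Few peaks owed their place to an overlap of at most 10 bp. The better of the 3T3 overlaps was at most 10 bp for 33 of the 2093 recurrent peaks (1.58%), while 17 non-recurrent peaks missed a 3T3 Runx2 peak by at most 10 bp. On the excluding side, 49 recurrent peaks lay at most 10 bp from a chondrocyte Runx2 or Jun peak without overlapping it. Among the osteoblast peaks that were in a 3T3 list but had chondrocyte Runx2 or Jun, 41 of 4465 were left out for an overlap of at most 10 bp. A stricter rule changed more. The overlap reached 50% of the shorter peak for 84.2% of day 3 pairs and 88.3% of day 0 pairs. When this was required for all lists, the excluding ones too, 2141 peaks met the rule, of which 1839 were among the 2093.

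The name osteoblast-only holds for the exact position and not for the neighbourhood. The nearest chondrocyte Runx2 peak was a median of 19412 bp from a recurrent peak, against 31758 bp from a non-recurrent one. It lay within 100 bp of 86 recurrent peaks (4.11%, 3.34 to 5.05%) and within 10 kb of 774 (37.0%, 34.9 to 39.1%), against 35 (1.45%, 1.04 to 2.01%) and 631 (26.2%, 24.4 to 27.9%) of the non-recurrent peaks. Jun showed the same order. The nearest Jun peak was a median of 15882 bp from a recurrent peak and 34693 bp from a non-recurrent peak. It lay within 1 kb of 451 recurrent peaks (21.5%, 19.8 to 23.4%), against 277 non-recurrent peaks (11.5%, 10.3 to 12.8%). Counting only peaks that did not overlap the site, a chondrocyte Runx2 peak was centred within 10 kb of 36.9% of recurrent peaks, 33.4% of all osteoblast Runx2 peaks and 43.5% of Jun-bearing peaks. For Jun these shares were 42.4% of recurrent peaks, 38.1% of all osteoblast Runx2 peaks and 54.7% of Jun-bearing peaks. Because the rule removed overlaps with both lists, these distances are a description of its edge and were not tested.

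**Figure D3:**
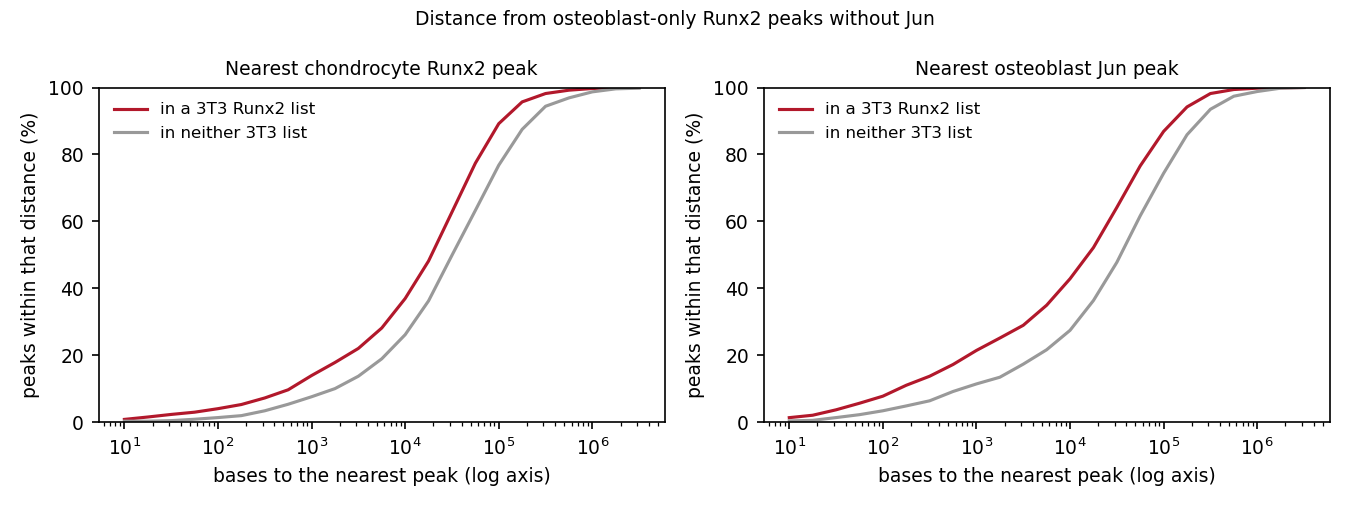
Cumulative share of osteoblast-only Runx2 peaks without Jun (y axis, %) that had a chondrocyte Runx2 peak (left) or an osteoblast Jun peak (right) within the distance on the x axis (bp, log axis). The curve of the recurrent peaks runs above that of the non-recurrent peaks in both panels from 10 bp upward, with 37.0% against 26.2% within 10 kb for chondrocyte Runx2 and 42.9% against 27.5% for Jun, until both approach 100%.

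The first test asked how often the recurrent peaks met Foxa2, a list the rule does not use. The overlap was rare: Foxa2 was listed at 35 of 2093 recurrent peaks (1.67%, 1.20 to 2.32%), where 4.93% of all osteoblast Runx2 peaks had it. The share was 2.11% (51 of 2413, 1.61 to 2.77%) among non-recurrent peaks and 1.09% (8 of 731, 0.556 to 2.14%) among Jun-bearing peaks. Neither difference passed the test (odds ratio 0.788, 0.495 to 1.24, adjusted p = 0.391, and odds ratio 1.54, 0.696 to 3.85, adjusted p = 0.427; two-sided Fisher's exact tests). These intervals do not show that the shares are alike. Chondrocyte-shared peaks had Foxa2 far more often, at 218 of 2455 (8.88%, 7.82 to 10.1%). The odds in recurrent peaks were 0.175 times those in chondrocyte-shared peaks (0.118 to 0.252; exact test, adjusted p = 7.07e-28), and the share was lower in recurrent peaks on 20 of 20 chromosomes. Foxa2 and the list that defines the chondrocyte-shared class both came from rib chondrocytes, so the factor and the cell type cannot be told apart. Since the rule removed peaks in that chondrocyte Runx2 list, this difference is bound up with the rule. In the wider 50% of each list the odds ratio was 0.441 (exact test, adjusted p = 0.0289).

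Foxa2 lay in the wider neighbourhood of recurrent peaks about as often as elsewhere in the list. A Foxa2 peak that did not overlap the peak itself was centred within 10 kb of 490 recurrent peaks (23.4%, 21.6 to 25.3%), of 24.0% (23.1 to 24.8%) of all osteoblast Runx2 peaks and of 25.3% (23.6 to 27.1%) of the chondrocyte-shared peaks. Among the recurrent peaks with Foxa2, the first in file order (chromosome 13, 99585052 to 99585326; build mm9, as are all positions below) was in both 3T3 lists and lay 92 bp from a Jun peak. The next was in the day 3 list alone (chromosome 10, 75756020 to 75756259), as was the one after it (chromosome 1, 36568561 to 36568819). The peaks on chromosomes 13 and 1 were also listed under the name of GFP day 3.

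The second test asked how often the recurrent peaks were in the GFP lists, where no tagged Runx2 was present. The list named for GFP day 3 held 16799 peaks and GFP day 0 held 2475, so their shares are not on a like footing. The list named for GFP day 3 overlapped 392 recurrent peaks (18.7%, 17.1 to 20.5%), close to the 20.1% of all osteoblast Runx2 peaks, and GFP day 0 overlapped 63 (3.01%, 2.36 to 3.83%), where all osteoblast Runx2 peaks had 4.55%. In all, 414 recurrent peaks were in at least 1 GFP list, 41 of them in both, and 1679 (80.2%, 78.5 to 81.9%) were in neither. Without GFP and Foxa2 there were 1651 (78.9%). The matching shares over all osteoblast Runx2 peaks are not given here, so being in neither GFP list is not shown to be particular to the recurrent peaks. With the crossed lists exchanged, the list then used as GFP day 3 overlapped 64.2% of the peaks that met the rule, so that most peaks being free of GFP overlap depends on the names.

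Recurrent peaks met the GFP lists more often than non-recurrent peaks did. The shares for the list named for GFP day 3 were 18.7% against 5.51% (4.67 to 6.50%), with an odds ratio of 3.95 (3.20 to 4.89; exact test, adjusted p = 6.13e-43) and a higher share on 20 of 20 chromosomes. For GFP day 0 they were 3.01% against 0.539% (0.315 to 0.920%), with an odds ratio of 5.73 (3.11 to 11.4; exact test, adjusted p = 1.90e-10) and a higher share on 17 of 20 chromosomes. The GFP lists and the 3T3 Runx2 lists share the cell line and the antibody target, and the part of either in this difference was not tested. The size also depended on the names of the lists: with the crossed ones exchanged the odds ratios were 20.6 and 18.0. In the wider 50% of each list they were 2.18 and 2.70. With the 3T3 Runx2 day 3 list alone in the rule they were 3.57 and 3.80, and within the 10 parts of the file order 2.86 and 3.58.

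Jun-bearing peaks went further in the same direction. The list named for GFP day 3 overlapped 18.7% of recurrent peaks against 38.7% (283 of 731, 35.3 to 42.3%) of Jun-bearing ones (odds ratio 0.365, 0.302 to 0.441; exact test, adjusted p = 2.79e-25), and the share was lower in recurrent peaks on 19 of 20 chromosomes. GFP day 0 overlapped 3.01% against 10.4% (76 of 731, 8.39 to 12.8%), with an odds ratio of 0.268 (0.186 to 0.383; exact test, adjusted p = 8.70e-13). With the crossed lists exchanged the odds ratio for the list then used as GFP day 3 was 0.711, and in the wider 50% of each list that for GFP day 0 was 0.427. Against chondrocyte-shared peaks the differences were smaller, at 18.7% against 23.7% (22.0 to 25.4%) for the list named for GFP day 3 (odds ratio 0.743, 0.642 to 0.860; exact test, adjusted p = 1.44e-04) and 3.01% against 4.93% (4.14 to 5.86%) for GFP day 0 (odds ratio 0.599, 0.432 to 0.824; exact test, adjusted p = 0.00253). Neither held within the parts of the file order, where the Mantel-Haenszel odds ratio was 1.10 (0.932 to 1.29) for the first and 0.869 (0.631 to 1.20) for the second, nor with 50% overlap or in the wider 50% of each list. The first was 0.307 with the crossed lists exchanged.

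**Figure D4:**
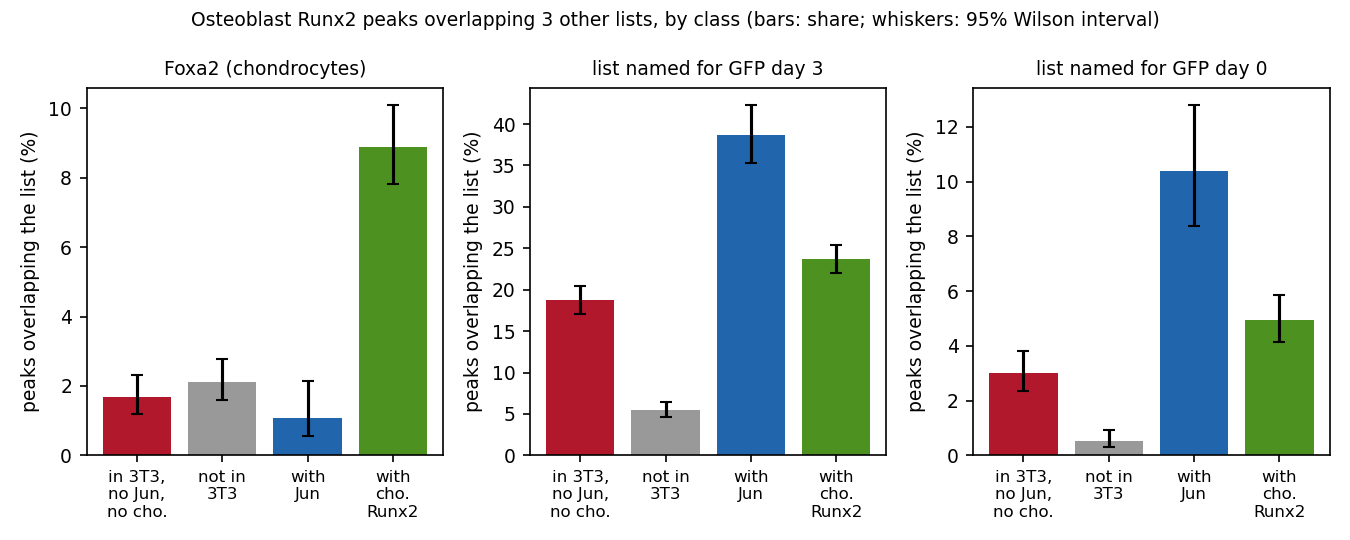
Share of osteoblast Runx2 peaks (y axis, %; whiskers, 95% Wilson intervals) overlapping Foxa2, the list named for GFP day 3 and GFP day 0, for recurrent peaks (red), non-recurrent peaks (grey), Jun-bearing peaks (blue) and chondrocyte-shared peaks (green). Recurrent peaks are close to the low Foxa2 level of the other osteoblast-only classes (1.67% against 2.11% and 1.09%) and lie between non-recurrent and Jun-bearing peaks in both GFP lists.

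Among the recurrent peaks, shares in the other lists were compared between days of listing. The day classes come from the 3T3 Runx2 lists that the rule used. The GFP lists share the cell line and the antibody target with them, and the part of either in the GFP differences below was not tested. Foxa2 overlapped 18 of the 592 peaks of day 3 alone (3.04%, 1.93 to 4.75%), 3 of the 232 of day 0 alone (1.29%, 0.441 to 3.73%) and 14 of the 1269 on both days (1.10%, 0.658 to 1.84%). Day 3 alone exceeded both days with an odds ratio of 2.81 (1.31 to 6.15; exact test, adjusted p = 0.0112) and a higher share on 12 of 20 chromosomes. The counts are small, and the difference did not hold in the wider 50% of each list (odds ratio 1.10; exact test, adjusted p = 1) or with the crossed lists exchanged (0.851; exact test, adjusted p = 0.694). For the list named for GFP day 3 the order was the opposite. It overlapped 66 peaks of day 3 alone (11.1%, 8.86 to 13.9%), 33 of day 0 alone (14.2%, 10.3 to 19.3%) and 293 on both days (23.1%, 20.9 to 25.5%). The odds ratio of day 3 alone against both days was 0.418 (0.309 to 0.560; exact test, adjusted p = 9.95e-10), with a lower share at day 3 alone on 19 of 20 chromosomes. It was 0.652 in the wider 50% of each list (exact test, adjusted p = 0.0458). That of day 0 alone against both days was 0.553 (0.362 to 0.823; exact test, adjusted p = 0.00472), and it no longer passed within the parts of the file order (0.711, 0.466 to 1.08) or in the wider 50% of each list (0.734; exact test, adjusted p = 0.182). It was 0.0563 with the crossed lists exchanged.

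GFP day 0 overlapped 10 peaks of day 3 alone (1.69%, 0.920 to 3.08%), 8 of day 0 alone (3.45%, 1.76 to 6.66%) and 45 on both days (3.55%, 2.66 to 4.71%). Day 3 alone was lower than both days (odds ratio 0.468, 0.209 to 0.949; exact test, adjusted p = 0.0449), a difference that did not pass under 6 of 8 alternatives and was 0.125 with the crossed lists exchanged. No difference between day 3 alone and day 0 alone passed for any of the 3 lists, with adjusted p of 0.301 for Foxa2, 0.301 for the list named for GFP day 3 and 0.272 for GFP day 0 (exact tests). Exchanging the crossed lists made 2 of these differences pass: the odds ratio was 7.47 for the list then used as GFP day 3 (exact test, adjusted p = 1.34e-28), on the other side of 1, and 0.127 for GFP day 0 (exact test, adjusted p = 1.04e-07).

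The recurrent share differed along the osteoblast file, whose ordering is not explained in the sources used here, and how it did so depended on the denominator. Divided into 10 equal parts, the osteoblast-only peaks without Jun were in a 3T3 Runx2 list at 70.8% in the first part (109 of 154) and 34.4% in the last (212 of 617). Those peaks were themselves few early in the file. Of all osteoblast Runx2 peaks, recurrent ones made up 10.6% in the first part, the lowest share, 25.6% in the sixth, the highest, and 20.7% in the last. The recurrent peaks of the first part were on both days at 72.5% and those of the last at 46.2%. GFP overlap differed most along the file: the list named for GFP day 3 held 62.4% of recurrent peaks in the first part and 2.83% in the last, and GFP day 0 held 15 of 109 and 0 of 212 (a count of 0 allows a share of up to 1.42%). This was not particular to recurrent peaks. For the list named for GFP day 3, the first and last parts had 48.9% and 1.48% of non-recurrent peaks. They had 71.2% and 14% of Jun-bearing peaks, and 58.1% and 1.32% of chondrocyte-shared peaks. Foxa2 in recurrent peaks did not follow this course, with 0 of 109 in the first part (which allows up to 2.75%) and 5 of 212 in the last. Recurrent peaks stood at a median of 53.5% of the way through the file, non-recurrent peaks at 67.2%, Jun-bearing peaks at 37.5% and chondrocyte-shared peaks at 40.6%. Recurrent peaks with GFP overlap were earlier, at 27.4% for GFP day 3 by name and 24.5% for GFP day 0, and those with Foxa2 later, at 67.4%.

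**Figure D5:**
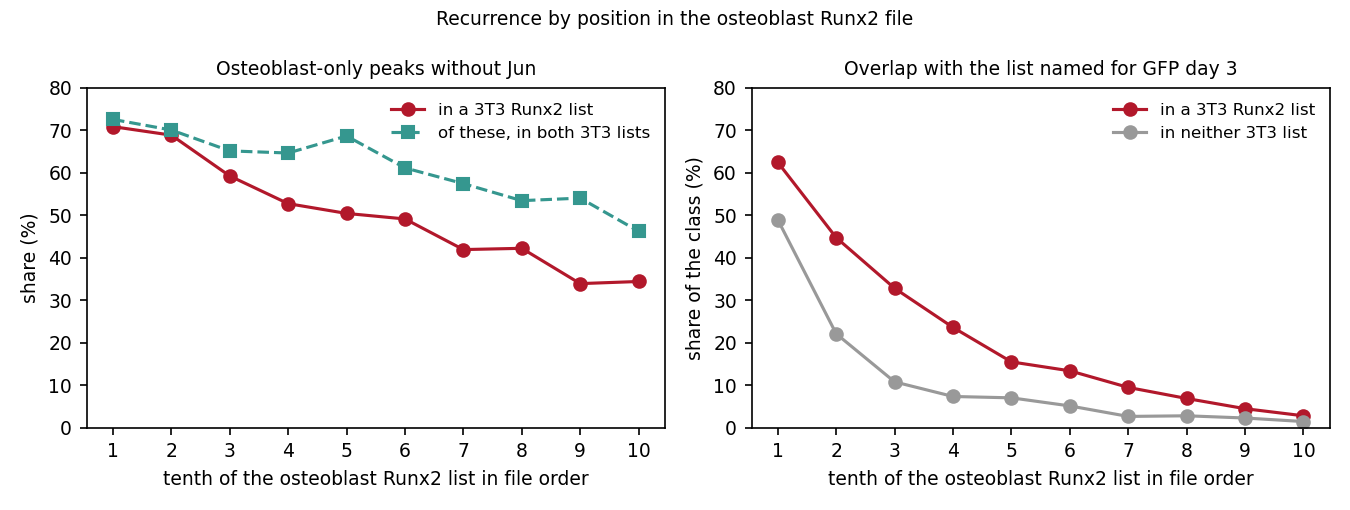
Shares (y axis, %) along 10 equal parts of the osteoblast Runx2 list in file order (x axis): on the left, osteoblast-only peaks without Jun in a 3T3 Runx2 list, and among those the share in both 3T3 lists; on the right, recurrent (red) and non-recurrent (grey) peaks in the list named for GFP day 3. The share in a 3T3 Runx2 list is 70.8% in the first part and 34.4% in the last, and the red GFP curve stays above the grey one in all 10 parts.

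The partners in the 3T3 files followed a like order. The day 3 partners of peaks listed on both days stood at a median of 22.1% of the way through the day 3 file, and those of peaks at day 3 alone at 52.5%. The day 0 partners stood at 34.3% of the day 0 file for peaks on both days and at 64.4% for peaks at day 0 alone. Partners of chondrocyte-shared peaks came earlier, at 14.0% of the day 3 file, and those of Jun-bearing peaks at 21.8%, where all partners of recurrent peaks were at 29.6%. In the day 0 file these medians were 19.9%, 32.2% and 38.3%.

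Width did not set the recurrent peaks apart. Their median width was 188 bp (quartiles 142 and 256 bp), that of non-recurrent peaks 188 bp (144 and 246 bp), of Jun-bearing peaks 212 bp and of chondrocyte-shared peaks 176 bp. Recurrent peaks at day 3 alone had a median of 196 bp, those at day 0 alone 173 bp and those on both days 185 bp. Those overlapped by the list named for GFP day 3 were wider, at 220 bp, than those in no GFP list, at 181 bp. The 3T3 partners were wider than the peaks they met, with a median of 218 bp at day 3 and 198 bp at day 0.

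The recurrent peaks lay on all 19 autosomes and chromosome X. Chromosome 11 had the most, with 196, and X the fewest, with 15. As a share of the osteoblast list they ranged from 14.6% on chromosome 3 (76 of 520) to 23.8% on chromosome 15 (106 of 446). Among osteoblast-only peaks without Jun the recurrent share ranged from 33.0% on chromosome 3 to 56.2% on chromosome 19. The share of recurrent peaks in the list named for GFP day 3 ranged from 6.67% on X (1 of 15) to 26.5% on chromosome 11 (52 of 196).

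Most recurrent peaks had no other osteoblast Runx2 peak nearby, and the median distance to the next centre was 18631 bp. Another osteoblast Runx2 peak was centred within 10 kb of 812 recurrent peaks (38.8%, 36.7 to 40.9%), against 34.6% (32.7 to 36.5%) of non-recurrent, 41.3% (37.8 to 44.9%) of Jun-bearing and 31.0% (29.2 to 32.9%) of chondrocyte-shared peaks. Of those 812 nearest neighbours, 221 (27.2%, 24.3 to 30.4%) were recurrent peaks themselves, a class that made up 20.4% of the list. This was not particular to them, although non-recurrent peaks did not show it. Within the same distance, the nearest neighbour was a recurrent peak for 25.2% (20.6 to 30.4%) of Jun-bearing and 23.8% (20.9 to 26.9%) of chondrocyte-shared peaks. For non-recurrent peaks it was one at 19.8% (17.2 to 22.6%). Non-recurrent peaks were the nearest neighbour of their own kind at 40.2% (36.9 to 43.5%), a class with 23.6% of the list. Chained by centres at most 10 kb apart, the 2093 peaks formed 1807 single sites, 119 pairs, 12 groups of 3 and 3 groups of 4. A 3T3 Runx2 day 3 peak that did not overlap the site was centred within 10 kb of 72.1% (70.1 to 74.0%) of recurrent peaks, 63.9% (63.0 to 64.8%) of all osteoblast Runx2 peaks, 46.6% (44.6 to 48.6%) of non-recurrent peaks, 80.8% (77.8 to 83.5%) of Jun-bearing peaks and 68.9% (67.1 to 70.7%) of chondrocyte-shared peaks. These neighbourhood values were not tested.

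The densest stretch of 100 kb or less lay on chromosome 19 from 47354648 to 47451006 and held 6 recurrent peaks, 4 on both days and 2 at day 3 alone, none of them in a GFP list or with Foxa2. It held 8 osteoblast Runx2 peaks in all, and none of these overlapped chondrocyte Runx2 or Jun, although 3 chondrocyte Runx2 and 7 Jun peaks lay in the same stretch. The 3T3 Runx2 lists had 23 peaks there at day 3 and 15 at day 0, and the list named for GFP day 3 had 6. The next stretch, on chromosome 5 from 130565176 to 130617203, held 5 recurrent peaks, of which 4 were at day 3 alone and 1 on both days. The 3T3 lists had 6 peaks there at day 3 and 1 at day 0, so this stretch was listed almost wholly at day 3. The one after it, on chromosome 17 from 84337964 to 84403976, held 5 recurrent peaks among 8 osteoblast peaks, 2 of them on both days, 2 at day 3 alone and 1 at day 0 alone, with 16 3T3 Runx2 peaks at day 3 and 10 at day 0. A genome or annotation of build mm9 was not used here, so no gene, motif or sequence is given for these positions.

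The 5 recurrent peaks that come first in the osteoblast file all lie in its first part, and none overlapped Foxa2. The peak on chromosome 13 from 95746338 to 95746574 was in both 3T3 Runx2 lists and in GFP day 0, and the nearest chondrocyte Runx2 and Jun peaks were 572091 and 398404 bp away. The narrow peak on chromosome 9 from 71981060 to 71981128 (69 bp) lay wholly within its day 3 and day 0 partners and 113 bp from a Jun peak. On chromosome 17 from 24687046 to 24687432 the peak missed a chondrocyte Runx2 peak by 59 bp and a Jun peak by 20 bp. Both of these were on the list named for GFP day 3. The peak on chromosome 4 from 88368102 to 88368327 was in both GFP lists and owed its place to 12 bp of overlap with a day 0 peak. On chromosome 1 from 62463484 to 62463655 the peak was at day 3 alone, covered in full by its partner, and in no GFP list. So 4 of these 5 were in a GFP list, where 414 of all 2093 were. In the first part of the file, however, the list named for GFP day 3 alone held 62.4% of recurrent peaks. Besides the peak on chromosome 4, the first recurrent peaks in both GFP lists were one of chromosome 6 (117857258 to 117857419) and one of chromosome 11 (104411471 to 104411639), both in the 3T3 Runx2 lists of both days and 98 and 208 bp from a Jun peak.

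The widest recurrent peaks often met their partners at one end. On both days these were a peak of chromosome 11 (6314941 to 6315438) and one of chromosome 18 (55355893 to 55356390), each of 498 bp, and one of chromosome 3 (126422432 to 126422925). The first shared 170 bp with its day 3 partner and 166 bp with its day 0 partner, and the last shared 37 and 27 bp. The peak on chromosome 18 had a Jun peak 13 bp away. At day 3 alone the widest was a peak of chromosome 15 (36333329 to 36333813) with 339 bp shared, followed by another of chromosome 15 (10665730 to 10666201) and by one of chromosome 1 (141318575 to 141319044), and none of the 3 was in a GFP list or with Foxa2. At day 0 alone the widest was a peak of chromosome 11 (86171227 to 86171716), followed by one of chromosome 2 (167784302 to 167784785) and one of chromosome 5 (139060437 to 139060918). The peak of chromosome 2 overlapped Foxa2 and the other two the list named for GFP day 3. The recurrent peaks closest to an excluded list touched a Jun peak end to end without sharing a base. One was on chromosome 4 (123250029 to 123250216) and the other two on chromosome 9 (14589148 to 14589364, and 118298754 to 118298847), and all 3 were in the 3T3 Runx2 lists of both days.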

How the data were processed

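The authors deposited 1 peak list for each ChIP-seq group, with chromosome, start and end of each peak and no score or other value, as the deposited files show. The build was mm9, and Bowtie and DiffBind are named with no role or version, per the submitters' processing notes. How peaks were called, with which threshold and controls, and any pooling of the 2 osteoblast and 2 chondrocyte Runx2 libraries are not given in the sources used here. Starts were read as 0-based and are printed 1-based. The gene table at hand was of GRCm38, past whose last genes 1271 peaks of the lists reached, so it was not used, and the planned motif and gene comparisons were not run.

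Overlap needed at least 1 bp. Shares of 2 classes were tested with Fisher's exact test (two-sided), the odds ratio being the conditional one, and p was adjusted over 18 tests by the Benjamini-Hochberg method. Of these 18 exact tests, 11 had an adjusted p under 0.05. Within file order, Mantel-Haenszel odds ratios were used, with their p adjusted separately. Overlaps were checked against bedtools 2.31.1 (0 of 56 pairs of lists differed). Fisher's exact test was tried on simulated independent counts, which do not hold the dependence between neighbouring peaks or any spread between replicates. The regions named are the first 5 in file order, the 3 widest per day class, the 3 densest windows of 100 kb, the first 3 with Foxa2 or in both GFP lists, and the 3 closest to an excluded list. The peaks and comparisons were chosen with earlier results of these data known. Alternatives concerned overlap, width, merging, the crossed lists, GFP overlap, sex chromosomes and file order. That with the 3T3 Runx2 day 3 list alone was chosen after seeing the data. Python 3.11.15, SciPy 1.17.1, pandas 2.3.3, statsmodels 0.14.6 and matplotlib 3.10.9 were used. Samples of the 23 ATAC-seq, 7 input and 1 IgG libraries were not analysed here.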

Additional observations from a re-analysis of the deposited data

How the results depend on the processing

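Of 186 values under alternatives, 147 kept their direction and side of the threshold, or stayed within a set margin for values without a test. Not all of these could change. Exchanging the crossed lists leaves the odds ratio for GFP day 3, day 3 alone against both days, at 0.418 by construction. With 50% overlap of the shorter peak, 58.3% of recurrent peaks were on both days and 14.9% at day 0 alone. The odds ratios were then 0.984 for Foxa2 against Jun-bearing peaks, 0.874 for GFP day 0 and 0.888 for GFP day 3 against chondrocyte-shared peaks, and, for day 3 alone, 1.07 for GFP day 0 against both days, and 1.32 for GFP day 0 and 1.15 for GFP day 3 against day 0 alone. For GFP day 0, day 3 alone against both days had 0.491 with centres within 250 bp, 0.741 with peaks of 200 bp, 0.378 in the wider 50% of each list, 0.478 with peaks merged and 0.612 within file order. With peaks of 200 bp, 26.2% were at day 3 alone, and the odds ratios were 0.691 for Foxa2 at day 0 alone against both days and 1.48 for GFP day 0 at day 3 alone against day 0 alone. In the wider 50% of each list 1292 peaks met the rule, of which only 712 were among the 2093. Of the 1292, 35.8% were at day 3 alone, 29.5% at day 0 alone and 34.8% on both days. The odds ratios there were 1.05 for Foxa2 against non-recurrent peaks, 0.782 for GFP day 0 and 0.841 for GFP day 3 against chondrocyte-shared peaks, 1.10 for Foxa2 at day 3 alone against both days, 0.737 for Foxa2 at day 3 alone against day 0 alone, 1.00 for GFP day 0 and 0.734 for GFP day 3 at day 0 alone against both days. With the crossed lists exchanged, 74.1%, 8.19% and 17.7% were at day 3 alone, day 0 alone and on both days. The odds ratios were 0.851 and 0.305 for Foxa2 at day 3 alone and day 0 alone against both days, and 0.127 for GFP day 0 and 7.47 for GFP day 3 at day 3 alone against day 0 alone, and the last 2 passed the test. With peaks merged, GFP day 0 at day 0 alone against both days had 1.00. Within file order, the chondrocyte-shared contrast was 0.869 for GFP day 0 and 1.10 for GFP day 3, and day 0 alone against both days 1.30 for GFP day 0 and 0.711 for GFP day 3. The cause of these changes was not tested. No paired analysis was possible because each group has 1 list, which carries no replicate number. The motif and gene alternatives were not run, and without depths no test could be made of list sizes.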
